A study of Mus musculus with 15 samples.

Results

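The Fc gamma receptors of the mouse and their shared signalling subunit were followed across 15 arrays of myeloid cells. The members were Fcgr1, Fcgr2b, Fcgr3, Fcgr4 and Fcer1g, taken as every probe set that the array annotation assigns to 1 of these symbols alone. This gave 10 of the 45037 probe sets in the deposited table. Fcgr2b had 5 of them and Fcgr1 had 2. Fcgr3 (1448620_at), Fcgr4 (1425225_at) and Fcer1g (1418340_at) had 1 each. The brightest for Fcgr2b was 1435477_s_at and for Fcgr1 1417876_at.

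Fc gamma receptors bind the constant part of IgG and let myeloid cells respond to antibody-coated particles and immune complexes. Fcgr1 (CD64), Fcgr3 (CD16) and Fcgr4 are activating receptors whose signal runs through the ITAM motif of the common gamma chain, the product of Fcer1g. Fcgr2b (CD32) is the inhibitory receptor of the family and carries an ITIM motif that recruits phosphatases such as SHIP-1. The CD16/32 antibody used to sort myeloid progenitors binds the proteins of both Fcgr3 and Fcgr2b.

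All samples came from C57Bl/6 mice, and the labels name no genetic change. Progenitors from the bone marrow of untreated wild-type animals were sorted into 4 populations with 2 arrays each. Common myeloid progenitors (CMP) were CD117 high, CD135+ and CD16/32-. Granulocyte-macrophage progenitors (GMP) were CD117 high, CD135- and CD16/32+. Common dendritic cell progenitors (CDP) were CD117 intermediate, CD135+ and CD16/32-. Precursors of conventional dendritic cells (pre-cDC) were CD117 low, CD135+, CD11c+ and CD16/32-, and CD11c was absent by gate from the other 3 populations. A further pre-cDC array is titled Spl, read here as spleen, although its cell type label is that of the marrow progenitors. Whole bone marrow was also cultured for 7 days in 20 ng/ml of GM-CSF or M-CSF, growth factors that drive myeloid differentiation. The adherent cells of both cultures and the non-adherent CD11c+ cells of the GM-CSF culture gave 1 array each. Bone marrow monocytes, enriched by negative selection, gave 1 array each at 0, 24 and 48 h with 20 ng/ml of GM-CSF. The labels do not say that the 2 arrays of a progenitor population came from separate animals, and the p-values then speak only of the spread between these arrays, which may be technical. The number of arrays, not a read depth, limits the precision.

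The deposited intensities stood on 4 scales, and differences of intensity were taken only within each. The median probe set read 15.95 to 17.44 on the 8 progenitor arrays, 24.09 to 25.66 on the 3 culture arrays, 77.73 to 80.53 on the 3 monocyte arrays and 74.17 on the spleen array. Log2 values of replicate progenitor arrays correlated at 0.9938 to 0.9965. Sort markers followed the gates: Flt3, which encodes CD135, read 35.9 and 31.8 in GMP against 1193 to 1623 on the 6 other progenitor arrays, and Itgax (CD11c) read 1537 and 1563 in pre-cDC against 13.6 to 153 in the other populations. The spleen array stood apart at Kit, which encodes CD117, low by gate on marrow pre-cDC. Kit stood at the 94.0th percentile of that array, with an intensity of 1105, while the bone marrow pre-cDC arrays gave 36.3 and 36.8 on their own scale. On the monocyte arrays Mpo, an enzyme of neutrophils and their precursors, read 4935 at 0 h and 170.2 at 24 h, and Itgax read 59.3 and 12043.

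The promoters are shown for the pair of receptors read by the sort antibody, Fcgr3 and Fcgr2b, which separated in pre-cDC. They are also shown for Fcgr4 and Fcgr1, which both read higher on the single M-CSF array, without a test. Each line holds the 250 bases upstream of the first listed transcript start, read 5′ to 3′ on the gene's own strand, from RefSeq on build GRCm38.p6. Fcgr3 lies at chr1:171059404-171059653 on the minus strand, Fcgr2b at chr1:170976072-170976321 on the minus strand, Fcgr4 at chr1:171018676-171018925 on the plus strand and Fcgr1 at chr3:96293970-96294219 on the minus strand. The window of Fcer1g, not printed, is chr1:171234350-171234599 on the minus strand. Capitals mark matches to the 3 motifs named after the sequences.
Fcgr3: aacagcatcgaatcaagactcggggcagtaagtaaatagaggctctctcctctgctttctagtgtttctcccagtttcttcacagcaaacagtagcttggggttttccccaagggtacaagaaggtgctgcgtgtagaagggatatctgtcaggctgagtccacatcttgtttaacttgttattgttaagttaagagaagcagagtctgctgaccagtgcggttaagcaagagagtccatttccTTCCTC
Fcgr2b: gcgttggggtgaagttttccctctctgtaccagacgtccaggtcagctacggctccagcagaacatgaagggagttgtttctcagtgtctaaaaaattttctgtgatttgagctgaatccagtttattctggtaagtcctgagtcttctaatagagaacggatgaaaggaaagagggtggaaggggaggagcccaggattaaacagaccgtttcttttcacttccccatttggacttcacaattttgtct
Fcgr4: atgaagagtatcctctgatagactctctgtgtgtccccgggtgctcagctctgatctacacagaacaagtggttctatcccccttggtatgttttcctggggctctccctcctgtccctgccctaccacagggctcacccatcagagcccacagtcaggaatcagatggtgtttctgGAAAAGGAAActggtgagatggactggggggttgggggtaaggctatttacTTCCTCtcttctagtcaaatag
Fcgr1: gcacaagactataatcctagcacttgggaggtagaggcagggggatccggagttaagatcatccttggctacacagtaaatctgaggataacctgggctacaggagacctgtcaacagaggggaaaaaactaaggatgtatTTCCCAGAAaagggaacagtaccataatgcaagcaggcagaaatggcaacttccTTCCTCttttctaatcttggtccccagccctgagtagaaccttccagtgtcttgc

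The motifs searched on both strands were the Ets box GAGGAA, a core bound by PU.1 and related factors, the interferon gamma element TTCNNNGAA and the interferon response element, taken as 2 blocks of GAAA with 2 bases between them. No 2 matches overlapped. The Ets box was found 6 to 1 bases upstream of the start of Fcgr3, 22 to 17 bases upstream of Fcgr4 and 55 to 50 bases upstream of Fcgr1, each time as TTCCTC on the printed strand. Of 27018 promoters of this length, 23.1% held it. Fcgr1 also held TTCCCAGAA 109 to 101 bases upstream, a match to TTCNNNGAA, and 7.18% of promoters held a match to that element. Fcgr4 held GAAAAGGAAA 73 to 64 bases upstream, a match to the interferon response element as defined here, and 3.04% of promoters held any such match. The windows of Fcgr2b and Fcer1g held none of these letters. RefSeq lists 2 starts for Fcgr3 and only the first was read.

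The members were followed over the progenitor arrays one by one. The gamma chain gene Fcer1g was lowest in CMP, higher in GMP, higher again in CDP and highest in pre-cDC. Fcgr3 was bright in GMP alone. The brightest Fcgr2b probe set had overlapping values in pre-cDC, sorted as CD16/32-, and GMP, sorted as CD16/32+, both above the other populations. The brightest Fcgr1 probe set rose above the array median only in pre-cDC, and Fcgr4 was low throughout with its highest values in GMP. Each gene with several probe sets is described by the brightest over the 15 arrays, and the others stand beside it. Tests were made with limma on log2(intensity + 32) over all 34945 probe sets that name 1 gene, with Benjamini-Hochberg adjustment. A probe set was called at an adjusted p under 0.05. Fold changes on this scale understate those of dim probe sets, and intensities of different probe sets are not comparable with each other. The arrays measured mixed RNA of many cells, so fewer cells of a type and less RNA per cell cannot be told apart.

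**Figure D1:**
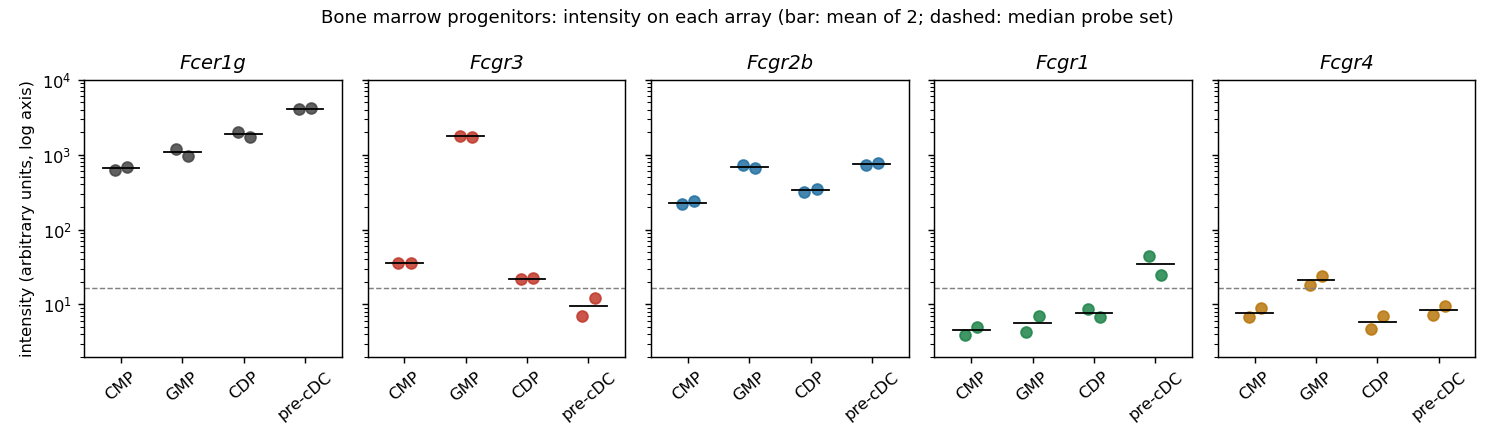
Deposited intensity (arbitrary units, log axis) of the brightest probe set of each gene on the 8 bone marrow progenitor arrays. Points are arrays, horizontal bars are means of 2 and the dashed line is the median probe set. Fcer1g was highest in pre-cDC, at 4119, Fcgr3 stood at 1752 in GMP and at 9.53 in pre-cDC, and the Fcgr2b points of GMP and pre-cDC overlapped.

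Fcer1g gave intensities of 631 and 686 in CMP, 1182 and 973 in GMP, 2011 and 1738 in CDP, and 4100.4 and 4138 in pre-cDC. No 2 populations overlapped, and each stood above the one named before it. This order is that of the values, and the labels do not give it as a line of descent. The probe set lay between the 93.6th and 99.4th percentile on all 8 arrays. The log2 difference was 0.68 ± 0.10 (SE) for GMP over CMP, with a limma adjusted p of 0.00071. CDP exceeded GMP by 0.78 ± 0.10 with a limma adjusted p of 0.000122, and pre-cDC exceeded CDP by 1.13 ± 0.10 with a limma adjusted p of 3.75e-06. Between CMP and pre-cDC the difference was 2.59 ± 0.10, 6.02-fold on this scale. Every pair of neighbours in this order of values therefore passed the test, and the calls held when any single array was left out.

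Fcgr3, the low-affinity activating receptor, gave 35.3 and 36.0 in CMP, 1775 and 1729.9 in GMP, 21.9 and 22.3 in CDP, and 7.03 and 12.0 in pre-cDC. The GMP arrays stood far above the rest, at the 98.2nd and 98.1st percentile. The pre-cDC arrays stood below the median probe set, at the 24.6th and 40.6th percentile. GMP exceeded CMP by 4.72 ± 0.11 in log2 (limma adjusted p = 1.04e-10). It exceeded CDP and pre-cDC by 33.0-fold and 43.0-fold on the intensity + 32 scale, which understates the ratios of the intensities themselves. These GMP differences run along the sort gate, which chose the cells by the protein of this gene and of Fcgr2b, and so they check the labels. Among the 3 populations gated as CD16/32-, pre-cDC fell below CMP by 0.71 ± 0.11 in log2 (limma adjusted p = 0.000127) and below CDP by 0.38 ± 0.11 (limma adjusted p = 0.0152). The second of these calls was lost without the first CDP array (limma adjusted p = 0.0539), the second CDP array (0.0619) or the first pre-cDC array (0.108), and with a constant of 64 before the logarithm (0.0612). CDP differed from CMP by -0.32 ± 0.11, which missed the threshold at a limma adjusted p of 0.0742 and passed it in 3 of 16 alternative settings, at 0.0257 to 0.0473.

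Fcgr2b, the inhibitory receptor, gave 218 and 240.3 in CMP, 723 and 658 in GMP, 314 and 350.4 in CDP, and 722 and 766 in pre-cDC. On this brightest probe set the values of GMP and pre-cDC overlapped, and both populations stood above CDP and CMP. GMP exceeded CMP by 1.47 ± 0.11 in log2 (limma adjusted p = 1.76e-06), again along the gate. Pre-cDC exceeded CDP, which shares its CD16/32- gate, by 1.09 ± 0.11 (limma adjusted p = 7.25e-06) and CMP by 1.57 ± 0.11 (limma adjusted p = 1.25e-07). CDP exceeded CMP by 0.48 ± 0.11 (limma adjusted p = 0.0125). This last difference was not called without the first CMP array (limma adjusted p = 0.113) or without the second CDP array (limma adjusted p = 0.0966).

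The comparison of pre-cDC with GMP set the CD16/32- gate against the CD16/32+ gate. Fcgr2b differed by 0.10 in log2, with a 95% interval of -0.13 to 0.34 and a limma adjusted p of 0.504. Fcgr3 differed by -5.43 on the same arrays (limma adjusted p = 3.27e-12). The Fcgr2b probe sets that read above the median on every array, 4 of the 5, gave -0.37 to 0.10 for pre-cDC against GMP. Only 1451941_a_at of these 4 was called, lower in pre-cDC at 417 and 379 against 542 and 501 in GMP (limma adjusted p = 0.0158). That call was lost without the first GMP array (limma adjusted p = 0.121) or the second pre-cDC array (0.0961). Values of 1435476_a_at were also lower in pre-cDC without overlap, at 321 and 342 against 352 and 365 in GMP. This difference was not called (limma adjusted p = 0.498). The 95% intervals of the 4 together reached from -0.60 to 0.34. The same 4 probe sets were all called higher in pre-cDC than in CDP, by 0.998 to 1.13, and higher in GMP than in CMP, by 1.42 to 1.78. In CDP against CMP they gave 0.28 to 0.48, and 2 of the 4 were called. Of these 4, 3 were designed on the same sequence record, so they are not independent readings. The name endings _s_at and _x_at mark probes that can match more than 1 transcript, and Fcgr2b and Fcgr3 encode similar extracellular parts. On the pre-cDC arrays, where the Fcgr3 probe set read 7.03 and 12.0, these 4 probe sets read 321 to 766. On the GMP arrays the Fcgr3 probe set read 1774.5 and 1729.9. A part of Fcgr3 RNA in the Fcgr2b readings of GMP was not tested. The remaining Fcgr2b probe set, 1447622_at, read 1.24 to 6.65 on the progenitor arrays, never rose above the array median on any of the 15 arrays, and was called in none of the progenitor comparisons.

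Fcgr1, the high-affinity IgG receptor typical of macrophages, gave 3.96 and 5.07 in CMP, 4.29 and 7.11 in GMP, 8.71 and 6.83 in CDP, and 44.5 and 24.9 in pre-cDC. All arrays but those of pre-cDC were below the median probe set, and the pre-cDC arrays reached the 66.8th and 57.4th percentile. Pre-cDC exceeded CDP by 0.73 ± 0.11 in log2 (limma adjusted p = 0.000248), GMP by 0.81 and CMP by 0.85. No difference among CMP, GMP and CDP was called, with limma adjusted p between 0.59 and 0.861, although the CDP values lay above those of CMP without overlap. The second probe set, 1436625_at, lay above the array median on all 8 progenitor arrays, between the 54.1st and 67.5th percentile, and read 47.0 and 42.2 in pre-cDC against 35.3 and 28.0 in CDP. Its difference of 0.27 (limma adjusted p = 0.0483) was lost in 10 of 15 alternative settings, which include leaving out any array but the first CDP array, with limma adjusted p up to 0.261. Its rise over GMP, 0.52 in log2, had a limma adjusted p of 0.00053. Markers of monocytes and macrophages moved the same way. Of 9 listed genes 7 were measured, and 5 of the 7 were called higher in pre-cDC than in CDP and none lower. In that comparison 31.9% of all genes were called in either direction. Their summed intensity was 2344 to 2438 in CMP, 2062 to 2511 in GMP, 4407 to 4642 in CDP and 8315 to 8349 in pre-cDC. Cd68 read 1111 ± 150 (SD, n = 2) in pre-cDC against 171 ± 15.3 in CDP, and Ccr2 3526 ± 144 against 1147 ± 86.5. Ccr2 and Csf1r, at 3351 ± 7.24, made up most of the pre-cDC sum, and Csf1r is also a listed marker of CDP and pre-cDC. Dendritic cell markers rose more in the same comparison. Of 5 measured, 4 were called higher and 0 lower, beside the same 31.9% of all genes. Their median log2 difference was 2.55 against 0.97 for the monocyte and macrophage list. Mertk, a receptor of mature macrophages, was below the array median on both pre-cDC arrays, at 7.52 and 9.24. The part of cells with any of these markers in the Fcgr1 difference was not tested.

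Fcgr4, an activating receptor of monocytes, macrophages and neutrophils, gave 6.71 and 8.89 in CMP, 18.3 and 24.1 in GMP, 4.73 and 6.99 in CDP, and 7.28 and 9.39 in pre-cDC. The GMP arrays alone lay above the median probe set, at the 53.3rd and 59.1st percentile. GMP exceeded CMP by 0.42 ± 0.08 in log2 (limma adjusted p = 0.00254), CDP by 0.49 and pre-cDC by 0.40. No difference among CMP, CDP and pre-cDC was called (limma adjusted p = 0.44 to 0.884), although the pre-cDC values lay above those of CDP without overlap. These values are dim, and differences among them are flattened on this scale. Markers of neutrophils moved the same way, with 5 of 7 listed genes measured. Of the 5, 3 were called higher in GMP than in CMP and none lower, where 15.7% of all genes were called in either direction. The summed intensity of the 5 was 2774 to 3342 in GMP, 116 to 157 in CMP, 218 to 313 in CDP and 130.3 to 183 in pre-cDC. S100a8 and S100a9 made up most of the GMP sum, and the granule gene Camp was the third gene called higher, at 43.9 ± 11.2 against 10.2 ± 4.96 in CMP (SD, n = 2). The granule genes Ngp, at 63.0 and 64.3 in GMP, and Ltf, at 10.7 and 7.96, were not called. The 6 measured markers of mast cells and basophils summed to 860.3 to 1015 in GMP against 184 to 195 in CMP. Of the 7 measured monocyte and macrophage markers, 2 were called higher in GMP than in CMP and 0 lower. Adgre1 read 85.1 ± 10.1 against 25.2 ± 3.83, and Cd14 34.7 ± 1.16 against 8.74 ± 1.46 (SD, n = 2). The sum of the 7 overlapped, at 2062 to 2511 in GMP and 2344 to 2438 in CMP. The part of these marker sets in the Fcgr4 and Fcgr3 differences was not tested.

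**Figure D2:**
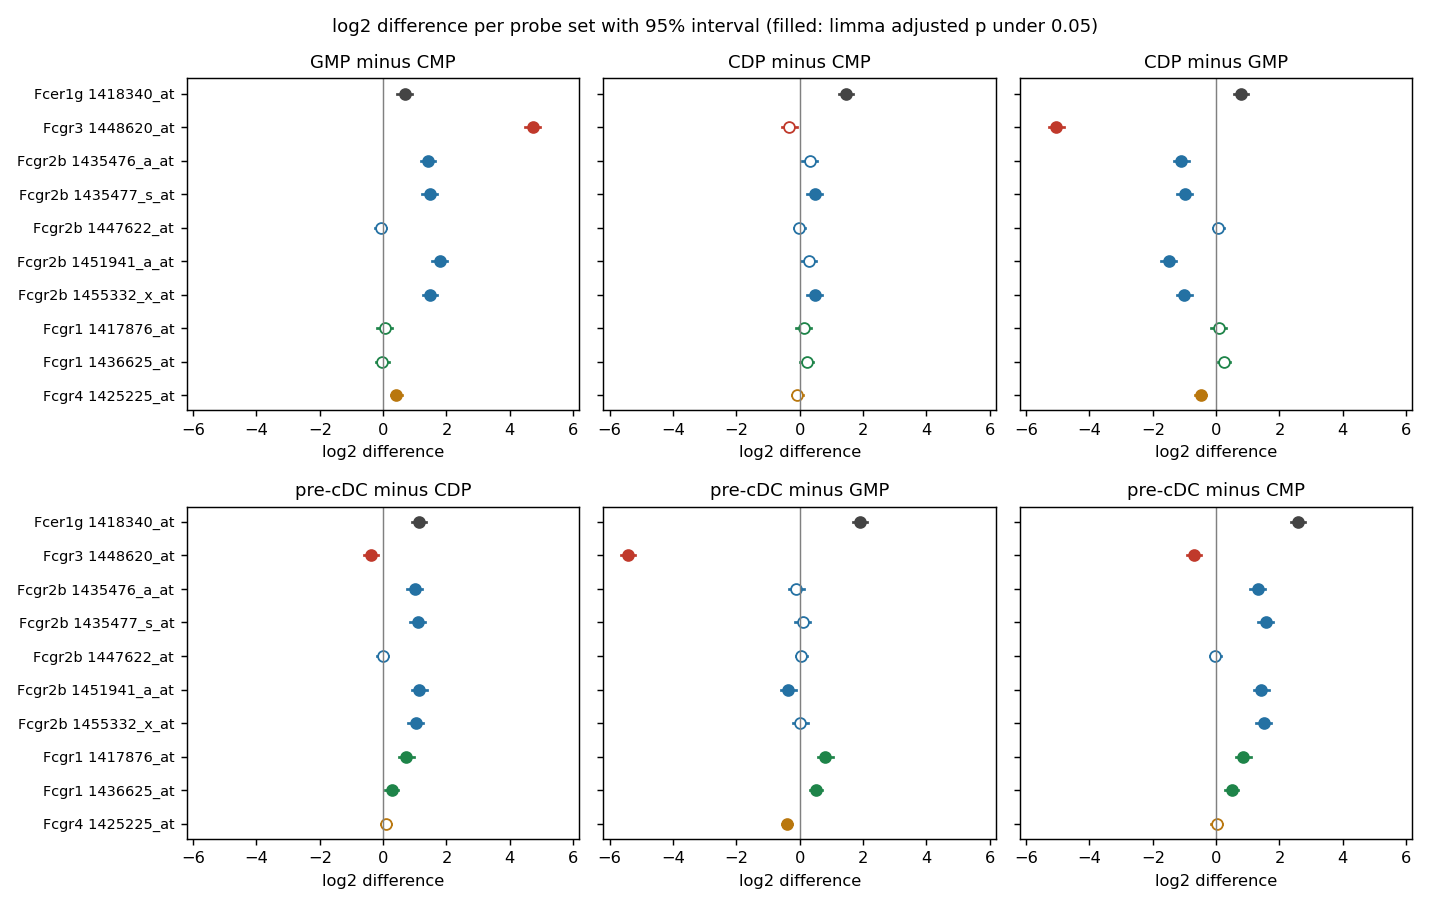
Log2 differences of intensity + 32 for the 10 probe sets in the 6 comparisons of progenitor populations. Points are estimates from 2 arrays a population, bars are 95% intervals from limma, and filled points had an adjusted p under 0.05. In pre-cDC minus GMP the Fcgr3 point lies at -5.43 while 4 Fcgr2b points lie between -0.37 and 0.10.

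Counted over all 10 probe sets, 7 were called in GMP against CMP, all higher in GMP, where 14.2% of all probe sets tested were called in either direction. In CDP against CMP 3 were called, all higher in CDP (10.9% of all). CDP against GMP had 1 higher and 6 lower (25.7% of all). Pre-cDC against CDP had 7 higher and 1 lower (28.3% of all), pre-cDC against CMP likewise 7 and 1 (38% of all), and pre-cDC against GMP 3 and 3 (41.4% of all). The counts repeat Fcgr2b, which supplies 4 of the bright probe sets. By gene, 2 of 5 were called in CDP against CMP (12.9% of all genes) and 4 of 5 in each of the other 5 comparisons. There, 15.7% of all genes were called in GMP against CMP and 26.9% in CDP against GMP. Pre-cDC had 31.9% called against CDP, 43.4% against GMP and 41.3% against CMP. These comparisons share groups of arrays, so their counts are not separate pieces of evidence.

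Genes of the signalling pathway were read from 4 lists, with 1 probe set a gene. Of the activating cascade below the gamma chain, which includes the kinases, adaptors and lipid enzymes that act after ITAM phosphorylation, 19 of 22 listed genes were measured. Pre-cDC against CDP had 8 of the 19 higher and 3 lower, with a median log2 difference of 0.16, where 31.9% of all 18193 genes were called and the median was -0.01. The Src-family kinase Fgr rose from 24.1 ± 7.96 to 207 ± 4.52 (SD, n = 2), by 2.10 in log2 (limma adjusted p = 1.72e-08). Pik3r5, a regulatory subunit of PI3-kinase gamma, rose from 102 ± 2.33 to 355 ± 46.8 and the kinase Prkcd from 709 ± 65.3 to 1585 ± 154. Phospholipase Plcg1 fell from 144 ± 1.17 to 49.0 ± 6.43. CDP against CMP had 8 of the 19 higher and 0 lower, against 12.9% of all genes. The B-cell linker Blnk was among them, at 99.6 ± 13.5 against 32.4 ± 0.02. GMP against CMP had 4 higher and 4 lower, against 15.7% of all genes. The adaptor Lat2 was among those that fell, from 225 ± 24.6 to 93.2 ± 14.01. CDP against GMP had 9 higher and 1 lower, pre-cDC against GMP 10 and 2, and pre-cDC against CMP 13 and 4, where 26.9%, 43.4% and 41.3% of all genes were called.

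The inhibitory arm comprised phosphatases, Dok and Cbl adaptors and other ITIM receptors, and 14 of 16 listed genes were measured. In pre-cDC against CDP 10 of the 14 were higher and 2 lower, with a median of 0.59 in log2, where 31.9% of all genes were called and their median was -0.01. The paired immunoglobulin-like receptor Pirb rose from 38.6 ± 8.89 to 678 ± 40.3, by 3.33 in log2 (limma adjusted p = 1.12e-09). Cd300a, another ITIM receptor, rose from 309.7 ± 43.6 to 1277 ± 254, and the phosphatase Ptpn6 (SHP-1) rose from 1297 ± 91.6 to 2428 ± 87.9. Inpp5d, which encodes SHIP-1, the phosphatase recruited by the Fcgr2b protein, stood at 1065 ± 39.2 in CDP against 541 ± 2.62 in GMP, 0.94 higher in log2 (limma adjusted p = 7.96e-05). It reached 1379 ± 70.3 in pre-cDC, 1.299 above GMP. CDP against CMP had 8 of the 14 higher and 0 lower, against 12.9% of all genes called, and CDP against GMP 6 and 1, against 26.9%. Pre-cDC against GMP had 10 and 1, against 43.4%, pre-cDC against CMP 10 and 1, against 41.3%, and GMP against CMP 4 and 2, against 15.7%. The adaptor Dok3 rose in GMP over CMP, from 79.5 ± 15.4 to 166 ± 2.998.

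Fcer1g shares its work with other ITAM adaptors and lends its ITAM to several lectin receptors, of which 11 of 16 listed genes were measured. Tyrobp, which encodes the adaptor DAP12, followed a pattern of its own among them. It read 1536 ± 50.5 in CMP, 1678 ± 194 in GMP, 3112 ± 20.9 in CDP and 5483 ± 51.9 in pre-cDC, and pre-cDC exceeded CDP by 0.81 in log2 (limma adjusted p = 6.7e-06). It was the 1 gene of this list called higher in each of the 5 comparisons other than GMP against CMP. In GMP against CMP the 1 call was Ms4a2, the beta chain of the IgE receptor, at 35.0 ± 1.41 against 10.2. The lectin receptor Clec4d, a partner of the gamma chain, ran the other way, at 65.5 ± 14.3 in CMP, 73.5 ± 1.07 in GMP, 17.9 ± 5.61 in CDP and 4.39 ± 1.52 in pre-cDC. Lower genes numbered 3 in CDP against CMP and 5 in CDP against GMP, where 12.9% and 26.9% of all genes were called in either direction. In pre-cDC against CDP 1 of the 11 was higher and 1 lower, a smaller share than the 31.9% of all genes. Lower genes numbered 5 in pre-cDC against GMP and 4 in pre-cDC against CMP, where 43.4% and 41.3% of all genes were called, and in GMP against CMP, where 15.7% were, there was none.

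Of the other Fc receptors, 9 of 12 listed genes were measured. Fcgrt, the neonatal Fc receptor that recycles IgG from endosomes, gave the largest difference of the list. It read 23.5 ± 3.13 in CMP, 23.5 ± 1.45 in GMP, 52.3 ± 7.45 in CDP and 832 ± 67.7 in pre-cDC, which exceeded CDP by 3.36 in log2 (limma adjusted p = 7.92e-10). In pre-cDC against CDP 3 of the 9 were higher and none lower, a share near the 31.9% of all genes called. The other calls there were Fcer2a, at 16.8 ± 1.68 against 7.99 ± 4.18, and Pigr, at 20.6 ± 1.65 against 13.2 ± 1.36, both near the median probe set. Pre-cDC against GMP and against CMP each had 4 higher, where 43.4% and 41.3% of all genes were called. CDP against GMP had 3 and CDP against CMP 1, beside 26.9% and 12.9% of all genes, and GMP against CMP had 1 lower, Fcrl1, beside 15.7%. In all 6 comparisons the share of this list was near that of all genes.

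The single pre-cDC array titled Spl stood on a scale of its own and was compared by percentile within the array, with no test. Spleen is a reading of its title alone, since its cell type label is that of the marrow progenitors. Kit, low by gate on marrow pre-cDC, stood at its 94.0th percentile, against 63.9 and 63.7 on the bone marrow pre-cDC arrays. The identity of its cells is therefore less sure. Fcgr2b stood at the 97.3rd percentile, against 94.0 and 94.5 on the bone marrow pre-cDC arrays. Fcer1g stood at 99.3 against 99.4 and 99.4. Both genes ranked high on all 3 arrays titled as pre-cDC. Fcgr3 stood at 19.5, against 24.6 and 40.6. Fcgr1 stood at 56.0, against 66.8 and 57.4, by its brightest probe set, while the second, 1436625_at, stood at 34.8, against 67.5 and 65.8. Fcgr4 stood at 35.0, against 25.7 and 33.0. Fcgr3 and Fcgr4 were below the median of the spleen array, as they were on both bone marrow arrays.

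**Figure D3:**
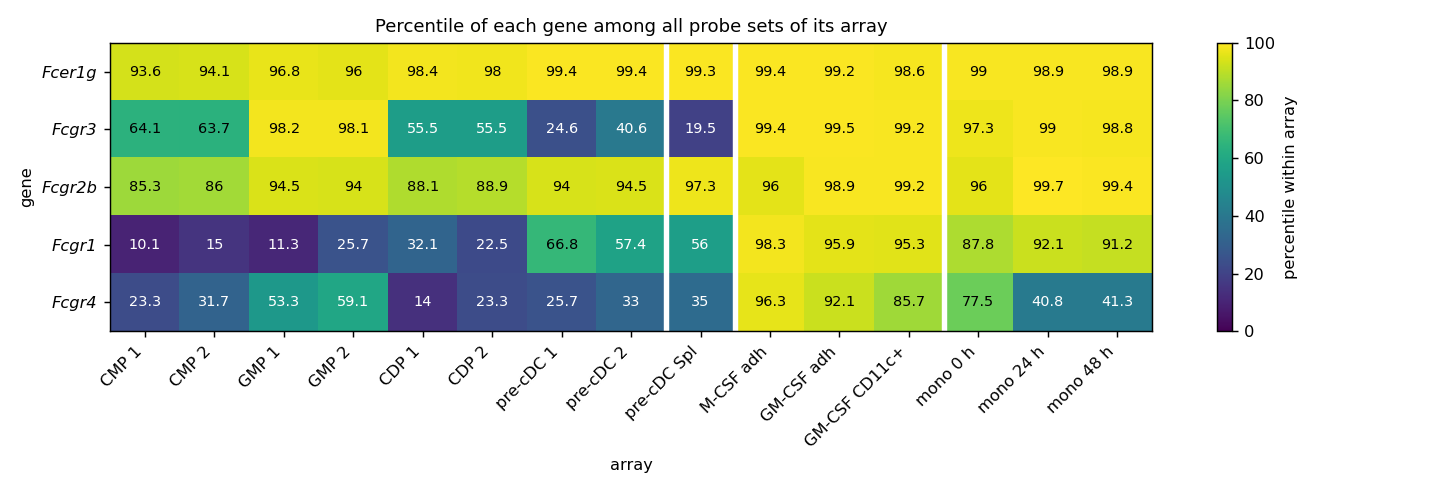
Percentile of the brightest probe set of each gene among all 45037 probe sets of its array, for the 15 arrays, with white lines between the 4 scales. Fcer1g lay at or above 93.6 throughout. Fcgr2b stood at 94.0 to 97.3 on the 3 arrays titled as pre-cDC while Fcgr3 stood at 19.5 to 40.6 there.

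The 7-day cultures differed in receptor levels by growth factor. Fcgr1 and Fcgr4 read higher in adherent cells grown in M-CSF, and Fcgr2b read higher in both GM-CSF fractions. Against GM-CSF adherent cells, Fcgr4 and the brightest Fcgr1 probe set stayed under 2-fold. Fcgr3 and Fcer1g were bright in all 3. Each culture gave 1 array, so there is no test and no replicate check here. Counts take a probe set as different when its intensity + 32 differed at least 2-fold and the higher value exceeded the array median.

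Fcgr2b read 2266 in M-CSF adherent cells, 5092 in GM-CSF adherent cells and 5919 in GM-CSF CD11c+ cells. The log2 difference from the M-CSF array was 1.16 for the adherent and 1.37 for the CD11c+ cells of the GM-CSF culture. Over the 4 bright Fcgr2b probe sets these ranged from 0.86 to 1.29 and from 1.22 to 1.63. Fcgr2b was therefore higher in both GM-CSF fractions by every bright probe set.

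Fcgr1 read 4160 in M-CSF adherent cells, 2249 in GM-CSF adherent cells and 2073 in CD11c+ cells. Its differences from the M-CSF array were -0.88 and -0.99 in log2, just under 2-fold, and those of 1436625_at were -1.17 and -1.36. Fcgr4 read 2406, 1258 and 620.05 in the same order, with differences from M-CSF of -0.92 and -1.90. Between the GM-CSF fractions Fcgr4 differed by -0.98 in log2, CD11c+ minus adherent. The intensities themselves differed 2.03-fold, so this pair stood at the edge of the counting rule.

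Fcgr3 read 6781, 6802 and 5883, and Fcer1g read 6705, 5894 and 4668, in the order M-CSF adherent, GM-CSF adherent and CD11c+. Neither differed 2-fold between any pair of cultures. Of the 10 probe sets, 3 were higher and 1 lower in GM-CSF adherent than in M-CSF adherent cells, where 4.4% of all probe sets passed. CD11c+ against M-CSF adherent cells had 4 higher and 2 lower (8.33% of all), and CD11c+ against GM-CSF adherent cells had 0 (3.03% of all). Neutrophil markers differed between the cultures: their summed intensity was 9530.2 in M-CSF adherent, 20606 in GM-CSF adherent and 1299 in CD11c+ cells. Their part in the receptor differences was not tested. The adherent M-CSF and GM-CSF cells both held the macrophage marker Adgre1, at 6889 and 4937, and the CD11c+ cells held 4046.

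In monocytes with GM-CSF, Fcgr2b read higher and Fcgr4 lower than at 0 h, while the gamma chain gene read nearly the same. Fcgr2b read 5973 at 0 h, 15945 at 24 h and 13790 at 48 h. Fcgr4 read 813, 47.4 and 48.8 at the same times. Fcer1g read 11824, 11823 and 11502. There was 1 array a time, so these are values with no test.

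Fcgr2b was 1.41 higher in log2 at 24 h and 1.20 higher at 48 h than at 0 h. Its 4 bright probe sets gave 1.41 to 2.10 at 24 h and 1.20 to 1.81 at 48 h. Fcgr4 differed from 0 h by -3.41 in log2 at 24 h, 10.6-fold on the intensity + 32 scale, and by -3.39 at 48 h. Its percentile went from 77.5 to 40.8 and 41.3, below the median probe set of the array. The activating receptor Fcgr3 read 7439, 11953 and 11062, and was 0.68 higher in log2 at 24 h. Fcgr1 read 2185, 3439 and 3238, 0.65 higher at 24 h by this probe set and 0.48 by 1436625_at. Neither reached 2-fold.

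At 24 h, 4 of the 10 probe sets were higher and 1 lower than at 0 h, where 12.6% of all probe sets passed. At 48 h against 0 h the counts were again 4 and 1 (12.5% of all), and between 24 and 48 h there were 0 (2.99% of all). The lower Fcgr4 values came with lower summed neutrophil markers, at 16231 on the 0 h array, 2593 at 24 h and 3698 at 48 h. S100a8 went from 10660.1 to 1086 and 1465, while Ngp read 890.4, 603 and 967 and Ltf read 187, 122 and 128. The 5 measured B cell markers summed to 1117, 414 and 402, and the 7 measured monocyte and macrophage markers to 48444, 49409 and 46984. Their part in the Fcgr4 difference was not tested.

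**Figure D4:**
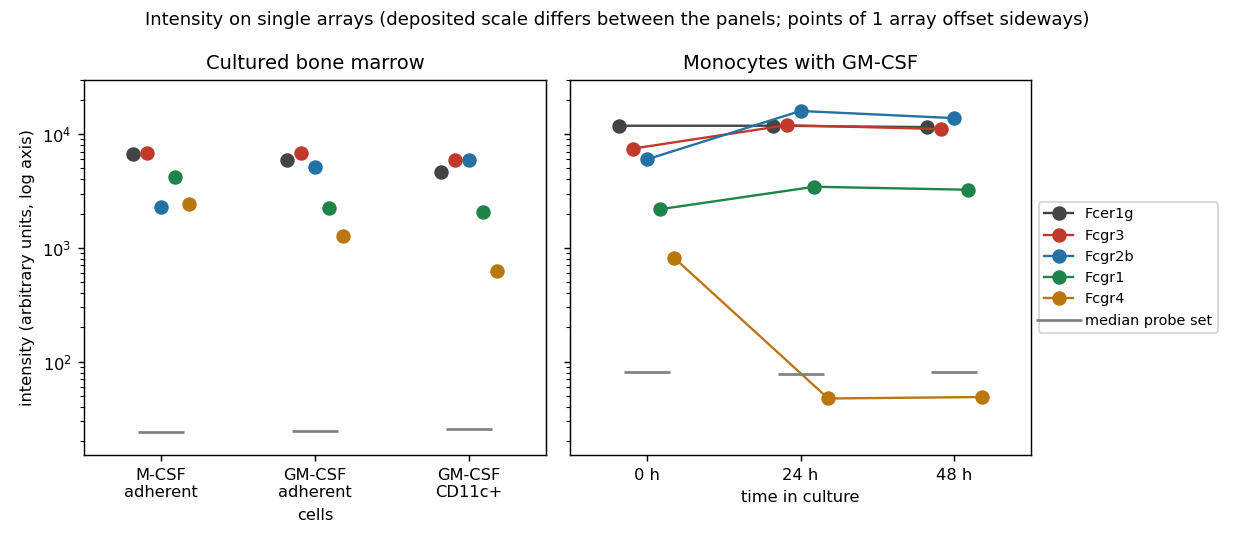
Deposited intensity (arbitrary units, log axis) of the brightest probe set of each gene on the 3 culture arrays and the 3 monocyte arrays, 1 array a condition. Grey dashes are the median probe set, lines join monocyte times, and points of 1 array are offset sideways so that all can be seen. In monocytes Fcgr2b went from 5973 to 15945 and Fcgr4 from 813 to 47.4 by 24 h.

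The pathway lists gave values of the same kind in these single-array comparisons. In monocytes at 24 h against 0 h, 3 of the 19 genes of the activating cascade were at least 2-fold higher and 0 lower, where 13.5% of all genes passed in either direction. Blnk went from 79.3 to 945 and then 1965 at 48 h, Lat2 from 291 to 910.3 and Src from 58.6 to 158. The inhibitory arm had 2 of 14 higher and 3 lower. Dok2, an adaptor that damps tyrosine kinase signals, went from 105 to 4438 and 5392, and the ITIM receptor Pilra from 1678 to 10226 and 7592. Cblb and Dok3 were among the lower genes, at 389 against 1123 and at 1454 against 3731.

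Lectin receptors that pair with the gamma chain were higher in monocytes with GM-CSF. Clec4n (Dectin-2) went from 362 at 0 h to 16303 at 24 h and 15794 at 48 h, and Clec4d from 1714 to 12318 and 9818. The adaptor Hcst (DAP10) read 1532, 141 and 399. Of the 11 measured genes in the list of Hcst, 3 were higher and 1 lower at 24 h, where 13.5% of all genes passed. Of the 9 measured other Fc receptors 2 were higher and 2 lower at 24 h, beside the same 13.5%. Fcrls, an Fc receptor-like gene, went from 130.1 to 716 and then 3978 at 48 h, and Fcgrt read 2291 at 0 h and 6924 at 48 h.

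The same lists were counted between the cultures. GM-CSF adherent against M-CSF adherent cells had 1 gene of the activating cascade higher and 2 lower, where 5.49% of all genes passed. Fgr read 765 against 43.0, and Blnk read 1759 against 4258. In the inhibitory arm Pilra read 2606 against 435 and Cd300lf 2712 against 509.9, while the ubiquitin ligase Cblb read 193 against 1061. Clec4n, at 8435 against 513, and Clec4e (Mincle), at 1694 against 308, were the 2 higher genes of the adaptor list. Fcrl1 was the 1 other Fc receptor past 2-fold, at 36.3 against 108. In CD11c+ against GM-CSF adherent cells, where 3.73% of all genes passed, the 4 lists together had 2 higher, Pik3r1 and Cblb, and 1 lower, Lat. In CD11c+ against M-CSF adherent cells, where 9.61% of all genes passed, the activating cascade had 4 higher and 4 lower, the inhibitory arm 2 and 0, the adaptor list 2 and 0 and the other Fc receptors 0 and 1. Fgr read 702 against 43.0 there.

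The genes most like each member were taken by Pearson's r over 14 arrays, with the log2 values of the progenitor, culture and monocyte arrays each centred on their own mean. The arrays share these 3 blocks and few conditions, so r describes these arrays only. Among 13148 genes, Fcer1g was most like Grn (r = 0.994), Anxa2 (0.993) and Ctsb (0.988). Fcgr3 was most like Mgam (0.979), Ms4a3 (0.976) and Dstn (0.976). Fcgr2b was most like Xbp1 (0.919), Orai1 (0.916) and Csf2rb (0.886). Fcgr1 was most like Ckb (0.928), Slamf8 (0.927) and Sacm1l (0.924). Fcgr4 was most like Armc3 (0.975), Bank1 (0.974) and Plac8 (0.971). Over the 8 progenitor arrays alone these last 3 gave 0.625, -0.663 and 0.028, so their likeness to Fcgr4 rested on the culture and monocyte arrays. The genes named for the other members gave r of 0.827 to 0.997 on the progenitor arrays. Those arrays were among the 14 used to choose the genes, so this is no separate check. For Fcgr3 the values there differ mainly between GMP and the rest, along the sort gate. Among the members themselves, r over the 14 arrays ran from -0.49, for Fcgr2b with Fcgr4, to 0.69, for Fcgr1 with Fcer1g.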

How the data were processed

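RNA was labelled with the 3' IVT Express Kit, per the labels' protocols, and hybridised to 1-colour arrays. The deposited table holds 1 linear intensity per probe set and array. The authors' background correction, summary of probes and scaling are not given in the sources used here. Array medians fell on 4 scales, and no comparison crossed them. Of 45037 probe sets, 34945 name 1 gene in the annotation, 932 several and 9160 none, giving 18193 genes. By gene ID, 34741 of the 34945 matched RefSeq of GRCm38.p6. All 15 columns matched a sample by title, and no 2 arrays were identical.

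Intensities were tested as log2(intensity + 32), without a filter, with the two-sided moderated test of limma 3.58.1 (R 4.3.3), in which the prior variance followed mean intensity (lmFit, contrasts.fit and eBayes). The fit took the 8 progenitor arrays with group means, 4 residual and 12.4 moderated degrees of freedom, and was tested on simulated data. Adjustment was by Benjamini-Hochberg over all 34945 probe sets. The culture, monocyte and spleen arrays had 1 array a condition and no test. Counts of listed genes used 1 probe set a gene, that with the highest mean over the 15 arrays, with the adjusted p of the same fit. Files were joined and plotted in Python 3.11.15 with pandas 2.3.3, numpy 2.4.6 and matplotlib 3.10.9.

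Every member probe set is described. Of each list up to 4 genes past the threshold, with the largest absolute log2 difference in a comparison, could be named. For likeness the 3 genes of highest r were named, passing over uncharacterised models and antibody segments, among genes above the array median somewhere. The members and lists were chosen with earlier results of these data known. Listed genes without a probe set of their own were not analysed here. The alternatives were other constants, quantile normalization or median scaling, a filter on dim probe sets, other sets of features, no intensity trend, the replicate number as a block, and each array left out.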

Additional observations from a re-analysis of the deposited data

How the results depend on the processing

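No called difference reversed under the alternatives tried. Sign changes occurred in 17 of 924 tested and 3 of 240 untested alternative values, all differences that missed the threshold in both settings, which carry no direction. The count of called probe sets became 4 of 5 in GMP against CMP, CDP against GMP, pre-cDC against CDP and pre-cDC against CMP with 1 probe set a gene, since only 5 entered. CDP against CMP went from 3 to 6 without the intensity trend. With 1 array left out it ranged from 1 to 3, the lowest without the first CMP array. The ranges were 7 to 7 in GMP against CMP, 7 to 7 in CDP against GMP, 6 to 7 in pre-cDC against CDP, 5 to 6 in pre-cDC against GMP and 8 to 8 in pre-cDC against CMP. The lone array of a group was then assumed to vary like the others. CD11c+ against GM-CSF adherent cells went from 0 to 1, Fcgr4, with a constant of 16, quantile normalization or median scaling. The spleen minus bone marrow percentile difference of Fcgr2b went from 3.07 to 3.54, and that of Fcer1g from -0.11 to -0.08, when only probe sets with 1 gene were ranked. The Fcgr4 difference in monocytes at 24 h was -3.71 with a constant of 16 and -2.98 with 64. Quantile normalization moved the split of all calls, higher and lower, from 2001 and 2966 to 2701 and 2426 in GMP against CMP, from 2117 and 1679 to 1749 and 2179 in CDP against CMP, and from 5361 and 3625 to 4177 and 5315 in CDP against GMP. Same-numbered arrays of different populations had correlated deviations of 0.012 to 0.349, and the labels do not tie the numbers to an animal or day, so they were not taken as pairing. With the replicate number as a block the counts were 7, 3, 7, 8, 6 and 8 in the order GMP to CMP, CDP to CMP, CDP to GMP, pre-cDC to CDP, pre-cDC to GMP and pre-cDC to CMP, and no count changed. Values below the array median in most progenitor populations limit what can be said of Fcgr4 and of the brightest Fcgr1 probe set there.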
